A study of Canis lupus familiaris with 33 samples.

Results

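The tumors compared here were 20 of 29 canine invasive urothelial carcinomas (iUC), set apart by how strongly they expressed 5 genes known to respond to low oxygen: CA9, SLC2A1, VEGFA, ADM and EGLN3. For each tumor the deposited TMM-normalized values of the 5 genes were averaged into a score, and the 10 tumors with the highest score were set against the 10 with the lowest over all other genes. The score was a mean of log2 values, each centred by the authors on the gene's median across the 33 samples of the series. The groups were chosen by these expression values and by nothing else. Oxygen was not measured in any tumor, so the groups are called high-score and low-score tumors rather than hypoxic and less hypoxic.

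Every tumor came from a different treatment-naive pet dog and was a high-grade tumor sampled by cystoscopy. A further 4 samples were bladder mucosa dissected from normal bladders, labelled normals A to D. The tumors are named by the start of their labels (JE, 12, Da6), and a "b" marks the second of 2 tumors whose labels start with the same number; 2 and 2b, and 7 and 7b, are different dogs. Age, sex and breed of the dogs were not used here. Each sample is a piece of tissue, so fewer cells of a type and less RNA per cell cannot be told apart in any value below.

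Cells sense oxygen through prolyl hydroxylases, the EGLN enzymes, which mark the alpha subunits of the hypoxia-inducible factors for destruction while oxygen is plentiful. When oxygen falls, the factors persist and switch on genes for glucose uptake and glycolysis, for blood vessel growth, for acid handling and for remodelling of matrix proteins. The same factors also induce EGLN3, which acts back on them. Solid tumors outgrow their blood supply in places, and this set of genes is widely used to rank tumors by hypoxia. Some of the genes have other inducers as well, among them growth factor signals and stress hormones.

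The score ran from 1.26 in tumor JE to -0.87 in tumor 8. The 10 high-score tumors were, in order, JE, Ab, 12, Mis, 7, 2, Da6, 9, 11 and 19, with a lowest score of 0.29, a median of 0.72 and a highest of 1.26. The 10 low-score tumors were 7b, CH, Mi, Po, 20, Sp, 3, 10, 15 and 8, with a lowest score of -0.87, a median of -0.45 and a highest of -0.20. The 9 tumors between them held scores from -0.11 to 0.22. The step at either edge was small. Tumor 19, the last taken into the high group at 0.29, stood next to tumor 5 at 0.22, which was left out, and tumor 7b, the first of the low group at -0.20, stood next to tumor 18 at -0.11.

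**Figure D1:**
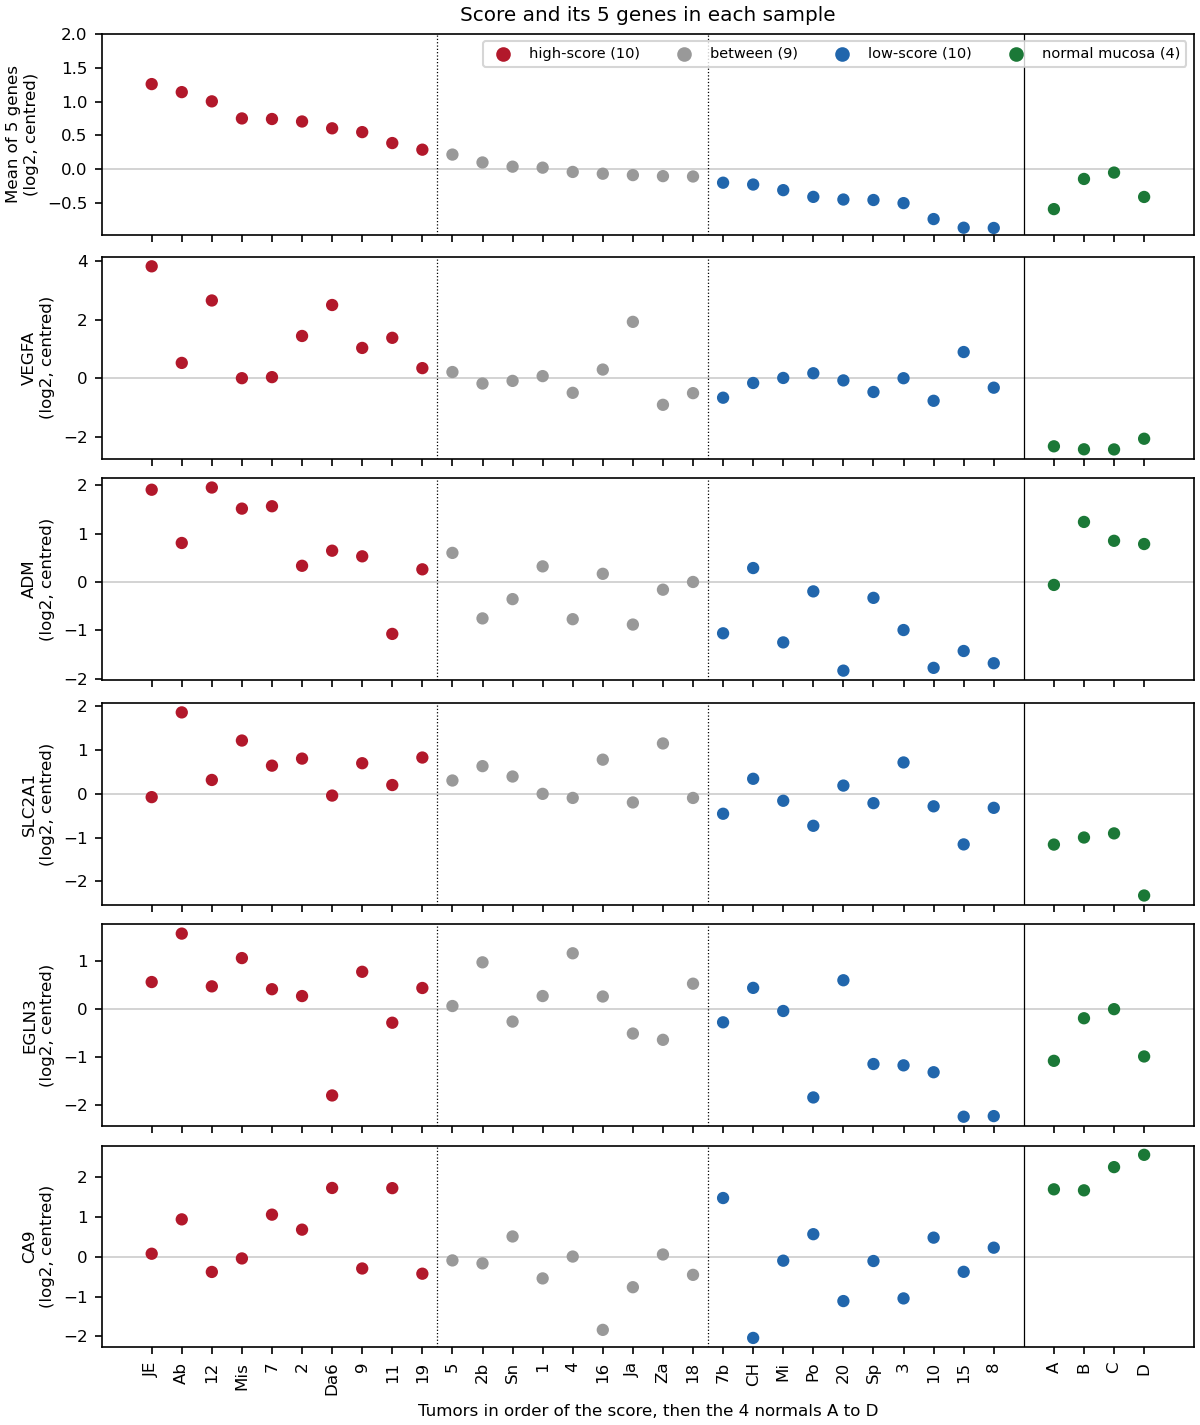
The score (top) and the 5 genes it averages, in log2 units relative to the gene's median over all samples, with one point per sample. Tumors stand in order of the score from left to right, with the 10 high-score tumors in red, the 9 between in grey, the 10 low-score tumors in blue and the 4 normals in green; each single gene overlaps between the red and blue groups although the score, by its construction, does not.

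No single scoring gene separated the groups. VEGFA, the main growth factor for blood vessels, lay at 0.00, 1.21 and 3.82 (lowest, median and highest) in the high-score tumors and at -0.77, -0.12 and 0.89 in the low-score tumors. Its values in the high group were spread widely, with JE at 3.82, 12 at 2.65 and Da6 at 2.50 on one side and Mis at 0.00 and 7 at 0.04 on the other. ADM, which encodes the vasodilator peptide adrenomedullin, lay at -1.07, 0.73 and 1.95 in the high group and at -1.83, -1.16 and 0.29 in the low group. In 8 of the 10 high-score tumors ADM stood above every low-score tumor, the largest such number among the 5 genes.

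SLC2A1, the glucose transporter GLUT1, lay at -0.07, 0.67 and 1.86 in the high group and at -1.15, -0.25 and 0.72 in the low group. EGLN3, the prolyl hydroxylase that is itself induced by low oxygen, lay at -1.80, 0.46 and 1.58 against -2.24, -1.16 and 0.60. CA9, the membrane carbonic anhydrase that handles acid at the cell surface and is the most used tissue marker of hypoxia, lay at -0.43, 0.37 and 1.72 against -2.04, -0.11 and 1.47. CA9 overlapped most: 2 of the 10 high-score tumors, Da6 and 11, stood above all low-score tumors. These values chose the groups and are given as a description, with no test.

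The 5 genes did not rank the tumors alike. Of the 10 tumors with the highest value of each gene, 8 fell in the high group for VEGFA, 8 for ADM, 6 for SLC2A1, 5 for EGLN3 and 5 for CA9. Only tumor Ab was among the 10 highest for all 5 genes. Tumor Da6 combined the highest CA9 of all tumors, 1.72, and a VEGFA of 2.50 with an EGLN3 of -1.80, which lay below the median of the low group. Tumor 11 had a CA9 of 1.71 and an ADM of -1.07. Tumor JE had the highest VEGFA and a SLC2A1 of -0.07, the lowest of the high group.

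Over the 29 tumors, 10 pairs can be formed from the 5 genes. Because these values chose the groups, the correlations are given as a description, with no test. In 4 pairs Pearson's r lay between 0.46 and 0.63. SLC2A1 and EGLN3 were the closest, with r = 0.63 and Spearman's rho = 0.52, and r was 0.47 once the 2 tumors with the most extreme SLC2A1 had been left out. VEGFA and ADM gave r = 0.49 and rho = 0.48, and r without the 2 tumors with the most extreme VEGFA was 0.21. ADM and EGLN3 gave r = 0.47 and rho = 0.47 (r = 0.45 without 2 tumors).

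SLC2A1 and ADM gave r = 0.46 and rho = 0.53 (r = 0.39 without 2 tumors). CA9 was in none of the 4 pairs. Its r with the other genes ran from -0.19 with EGLN3 to 0.14 with VEGFA, with rho of -0.21 and 0.04, and without 2 tumors these r became -0.04 and -0.03. CA9 and VEGFA also stood apart in the normal mucosa. CA9 was between 1.66 and 2.55 in the 4 normals, with 2 of them above every tumor, whereas VEGFA was between -2.43 and -2.07 there, below all 29 tumors. The normals therefore had scores of -0.59 to -0.05, within the range of the tumors. Their mean over 6 smooth muscle genes was 5.45, against -0.03 in the high-score and 0.52 in the low-score tumors.

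The libraries of the 2 groups did not differ beyond their spread in the measures that the tables allow. Between 4638 and 8140 genes were at their shared lowest value in a high-score tumor (median 6781) and between 4189 and 7814 in a low-score tumor (median 6915; two-sided permutation test, p = 0.990, adjusted 0.990). The tables do not reveal how many reads a library had in total, and 1 read pair was worth 1.64 to 2.48 normalized units in these 20 tumors (adjusted permutation p = 0.990). Tumors 9 (high) and Po (low) stood apart: 75.4% and 87.4% of 467 olfactory receptor genes, a family used mainly in the nose, were above their lowest value, against medians of 19.2% and 17.5% (adjusted permutation p = 0.990). The counts below are also given without those 2 tumors where the number of genes at an unadjusted p under 0.05 differs.

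Outside the score, no gene passed the threshold. Of 19233 genes tested with limma, 0 had a Benjamini-Hochberg adjusted p of at most 0.05 in either direction (0% of those tested), and the smallest adjusted p was 0.333. At an unadjusted p under 0.05 there were 1203 genes (6.25%), of which 589 had the larger mean in the high-score tumors (3.06%) and 614 in the low-score tumors (3.19%). The DESeq-normalized table of the same tumors also gave 0. Without tumors 9 and Po, 0 genes passed and the counts of 589 and 614 became 609 and 629. The median difference over all genes was -0.01 on the log2 scale, and 48.3% of the genes had a difference above 0. A typical 95% interval reached 0.66 to either side of the estimate. That reach is for a single gene before adjustment, and differences more than 2 times as large, such as that of PFKFB3 below, also missed the adjusted threshold. The absence of a call does not show that the groups were equal. Below, a difference is always the mean of the high-score minus the mean of the low-score tumors on the log2 scale, and no gene is said to have changed.

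Glycolysis is the pathway that SLC2A1 feeds with glucose. Of 23 genes listed, 10 were found by symbol in the table and 9 were tested. Of the 9, 8 had a difference above 0. At an unadjusted p under 0.05 in that direction there were 4 (background 3.06%), and 0 passed the adjusted threshold. The median difference of the 9 was 0.61, against -0.01 over all genes. The count of 4 was also 4 without tumors 9 and Po. It was 7 when VEGFA was left out of the score and the tumors were ranked again (background 3.49% in that fit). With ADM left out it was 3 (background 1.8%). Much of the pathway, such as PGK1, LDHA, ENO1 and ALDOA, was not analysed here.

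PFKFB3 makes fructose 2,6-bisphosphate, the strongest activator of phosphofructokinase, and so sets the pace of glycolysis. It lay at 0.31, 1.09 and 2.72 (lowest, median and highest) in the high-score tumors and at -1.45, -0.26 and 0.99 in the low-score tumors. All 10 high-score tumors were above the median of the low group, 6 were above its highest tumor, and 9 low-score tumors were below the lowest high-score tumor, so that a single low-score tumor, Sp, made the groups overlap. The difference was 1.64 (95% interval 0.97 to 2.32; unadjusted p = 5.2e-05, adjusted p = 0.333), the third smallest p of all genes tested. The 9 tumors between the groups had a median of -0.26, level with that of the low group, but a mean of 0.27. They ran from -0.94 to 1.87, with tumors 5 and 1, at 1.87 and 1.75, above every low-score tumor. The normals lay between -1.78 and -1.14.

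HK2, the hexokinase that traps glucose in the cell, lay at -0.72, 0.71 and 1.47 against -3.09, -0.37 and 0.86 (difference 1.56, 95% interval 0.49 to 2.64, adjusted p = 0.722). PFKP, the platelet-type phosphofructokinase, lay at -0.97, 0.96 and 2.65 against -2.29, -0.21 and 0.89 (difference 1.28, 0.45 to 2.12, adjusted p = 0.722). In both genes the groups overlapped, with 5 high-score tumors for HK2 and 7 for PFKP above every low-score tumor. SLC16A3, the transporter MCT4 that exports lactate, had a difference of 0.81 (0.20 to 1.43, adjusted p = 0.740) and overlapped across most of its range, with 2 high-score tumors above all low-score tumors. The other lactate transporter of the list, SLC16A1 or MCT1, had a difference of 0.05 (-1.29 to 1.39), an interval too wide to place it. HK1, GPI and ALDOC had differences of 0.51, 0.49 and 0.61 with intervals that included 0; that of ALDOC, which is also the list median, was 0.34 without tumor Ab, the highest at 2.93. PFKFB4, a close relative of PFKFB3, had a difference of -0.08 (-0.59 to 0.42).

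In the mean over the 9 glycolysis genes tested, 7 of the 10 high-score tumors stood above every low-score tumor. That mean ran from -0.07 in tumor 2 to 0.84 in tumor 12 in the high group, with a median of 0.51, and from -0.96 in tumor 8 to 0.38 in tumor Sp in the low group, with a median of -0.18. The highest mean of all tumors, 0.93, was in tumor 5 between the groups, the tumor with the largest share of olfactory receptor genes above their lowest value (91.9%). All 4 normals lay below all tumors, at -1.41 to -1.27.

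**Figure D2:**
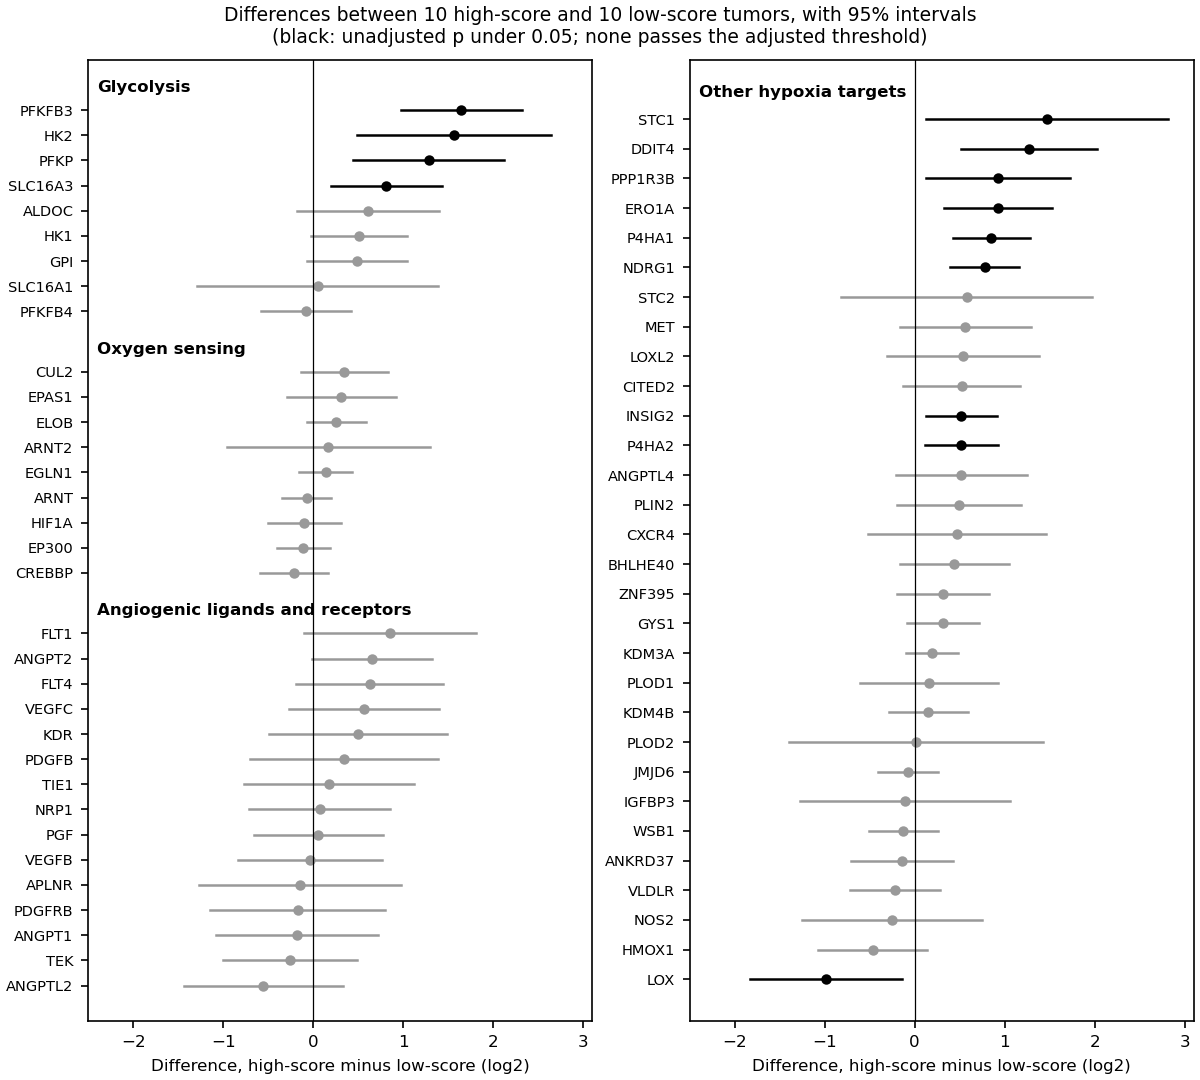
Differences between the mean of 10 high-score and the mean of 10 low-score tumors (log2, horizontal axis) for tested genes of 4 lists, with 95% intervals from limma. Genes in black have an unadjusted p under 0.05; these are 4 in glycolysis, 9 among the 30 other hypoxia targets drawn with LOX alone to the left of 0, and none in oxygen sensing or among angiogenic ligands and receptors.

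Among 46 other genes known to be induced by hypoxia, 31 were in the table and all 31 were tested. The difference was above 0 in 23, and 9 of these had an unadjusted p under 0.05 (background 3.06%), while 1 gene did in the other direction (background 3.19%) and 0 passed the adjusted threshold. The median difference was 0.47. Without tumors 9 and Po the 9 became 10 and the 1 became 0. Left-out scoring genes moved the count between 8 and 11 (background 1.8% to 3.79% in those fits).

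The 2 genes with the smallest p among the 9 were NDRG1 and P4HA1. NDRG1, a stress-response gene long used as a hypoxia marker, lay at -0.06, 0.50 and 0.83 in the high group and at -1.0, -0.21 and 0.29 in the low group, with 8 high-score tumors above every low-score tumor (difference 0.78, 95% interval 0.39 to 1.16, adjusted p = 0.423). P4HA1, a subunit of the prolyl hydroxylase that stabilizes collagen, lay at -0.27, 0.57 and 1.60 against -0.94, -0.09 and 0.15. Here 9 of the 10 high-score tumors stood above every low-score tumor (difference 0.85, 0.42 to 1.28, adjusted p = 0.423). Its partner P4HA2 had a difference of 0.52 (0.12 to 0.92, adjusted p = 0.740). For NDRG1 and P4HA1 the tumors between the groups were also intermediate, with medians of -0.03 and 0.34, and the normals lay below all 29 tumors, at -2.0 to -1.60 and -1.47 to -1.20.

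DDIT4, a brake on the growth kinase mTOR, lay at -0.56, 0.53 and 2.22 against -2.11, -0.57 and 0.24 (difference 1.27, 0.51 to 2.03, adjusted p = 0.693), and all 10 high-score tumors were above the low group's median. ERO1A, an oxidase of the endoplasmic reticulum, had a difference of 0.92 (0.33 to 1.52), PPP1R3B, a regulator of glycogen synthesis, 0.93 (0.13 to 1.73), and INSIG2, which restrains sterol synthesis, 0.52 (0.13 to 0.92).

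STC1, a secreted glycoprotein, had a difference of 1.47 (0.13 to 2.81, adjusted p = 0.775) that rested on few tumors: Da6 at 4.65 and JE at 3.31 led the high group, Po at 3.42 stood above the other low-score tumors, and the highest value of all, 5.71, was in tumor Ja between the groups. With VEGFA left out of the score its difference was 0.33. LOX, which crosslinks collagen and is also a hypoxia target, ran the other way. It lay at -2.0, -0.73 and 1.10 in the high group and at -1.19, 0.55 and 1.78 in the low group, a difference of -0.98 (-1.82 to -0.14, adjusted p = 0.772). LOX was far above both groups in the normals, at 3.24 to 4.18, as was the fibroblast proteoglycan DCN, at 3.41 to 4.04. ANGPTL4, a lipase inhibitor commonly placed in hypoxia signatures, had a difference of 0.52 with an interval of -0.21 to 1.24, and of 0.34 without tumor 10.

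The genes that sense oxygen showed the narrowest range of differences among the hypoxia lists. Of 15 listed genes 9 were tested, with 0 at an unadjusted p under 0.05 in either direction, differences from -0.22 to 0.35 and a median of 0.14 (0.059 without tumors 9 and Po). HIF1A, the alpha subunit of the main hypoxia-inducible factor, had a difference of -0.10 (95% interval -0.51 to 0.31), EPAS1, which encodes the related subunit HIF-2 alpha, 0.31 (-0.29 to 0.91), and EGLN1, the main oxygen-dependent hydroxylase, 0.14 (-0.16 to 0.44). Single tumors moved these small values: EPAS1 was 0.16 without tumor 10, EGLN1 was 0.074 without tumor 9, and HIF1A was between -0.19 and -0.021 over the alternatives. For all 3 the intervals leave room for a difference of less than 2-fold only. RNA does not report the stability of these proteins, which is where oxygen acts.

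VEGFA was part of the score, but its receptors and the other vessel-forming signals were not. Of 15 tested angiogenic ligands and receptors 0 reached an unadjusted p under 0.05, the median difference was 0.07, and 9 of the 15 were above 0 (14 of 15, with a median of 0.19, without tumors 9 and Po). FLT1, the receptor VEGFR1, lay at -1.08, 0.72 and 3.01 in the high group and at -0.80, -0.07 and 1.39 in the low group (difference 0.86, 95% interval -0.10 to 1.81). ANGPT2, the ligand that loosens vessels for sprouting, had a difference of 0.65 (-0.02 to 1.32) with 4 high-score tumors above every low-score tumor. Endothelial markers had 0 of 10 at an unadjusted p under 0.05 and a median difference of 0.06 (0.18 without tumors 9 and Po), and their mean overlapped over nearly its whole range, from -0.93 to 1.87 in the high group and from -1.0 to 1.23 in the low group.

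Acid and bicarbonate handling, the function of CA9, had 1 of 10 tested genes at an unadjusted p under 0.05. That was SLC4A2, the anion exchanger AE2, with a difference of 0.58 (95% interval 0.07 to 1.08, adjusted p = 0.775) and a high-score tumor, 12, far above the rest at 1.58. Oxidative phosphorylation had 1 of 33, the succinate dehydrogenase subunit SDHB, with a difference of 0.43 (0.07 to 0.79, adjusted p = 0.772) and a list median of 0.15 (0.065 without tumors 9 and Po, with 21 rather than 25 of 33 above 0). The share for oxidative phosphorylation is near the background of 3.06%, and 1 gene of 10 is too few to set against it. Proliferation genes had 0 of 23 and a median difference of 0.04, stress-response genes of the unfolded protein pathway 1 of 20 and a median of 0.17, and p53 targets 2 of 12 and a median of 0.25.

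The list with the largest median difference was not a hypoxia list. Among 26 genes of squamous and basal epithelium, the keratins, desmosomal proteins and matrix receptors of the deepest urothelial layer and of squamous cells, 16 were in the table and 15 were tested. Of these 12 had a difference above 0, 5 of them at an unadjusted p under 0.05 (background 3.06%) and 0 at the adjusted threshold, with a median difference of 1.05. Without tumors 9 and Po the 5 became 6. No alternative gave fewer than 5, and the score used as a slope over all 29 tumors gave 8 (background 3.53% in that fit).

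LAMB3, a chain of laminin-332, which anchors basal cells to the basement membrane, was not on the list and was noticed because its p was the second smallest of all genes. It lay at 0.00, 1.02 and 2.37 against -1.91, -0.49 and 0.45 (difference 1.56, 0.93 to 2.19, adjusted p = 0.333), and 9 low-score tumors were below every high-score tumor.

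CD44, the hyaluronan receptor of basal cells, lay at -0.73, 1.83 and 3.68 in the high group and at -1.97, -0.61 and 1.39 in the low group (difference 2.19, 95% interval 1.07 to 3.32, adjusted p = 0.428). CDH3, the cadherin of basal epithelial cells, stood on the list of the epithelial to mesenchymal transition and lay at 0.00, 0.98 and 3.06 against -3.33, -0.74 and 0.19. In CDH3 8 high-score tumors were above every low-score tumor (difference 2.10, 1.14 to 3.05, adjusted p = 0.387); it was the 1 of 18 tested genes of that list with an unadjusted p under 0.05 (background 3.06%), and the list median was 0.06 with 8 of 18 below 0. DSC2, a desmosomal cadherin, had a difference of 2.14 (0.61 to 3.67, adjusted p = 0.722). Low-score tumors 3 and 15, at -5.27 and -5.25, stood far below the other low-score tumors, which lay between -1.31 and 1.55. The difference without both was not computed.

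KRT14 and DSG3 had the largest differences and also the largest spread. KRT14, the keratin of basal and squamous cells, lay at -0.98, 1.60 and 9.54 in the high group and at -2.17, -0.37 and 2.20 in the low group. In the high group Da6 (9.54), 7 (5.49), JE (4.82) and Ab (3.62) stood above every low-score tumor while 11 and Mis were at -0.97 and -0.98 (difference 2.92, 95% interval 0.67 to 5.17, adjusted p = 0.740). DSG3, a desmosomal cadherin of squamous epithelium, lay at -1.86, 1.32 and 6.35 against -3.17, -1.45 and 4.69 (difference 3.28, 0.92 to 5.65, adjusted p = 0.722). The highest low-score value of DSG3 was tumor Po. KRT17 had a difference of 1.94 with an interval of -0.27 to 4.15. The mean over the squamous and basal list was highest in Da6 (2.88), 2 (1.79), 7 (1.48) and JE (1.37), all high-score, and next in the low-score tumor Po (1.30). The high-score tumors 11 and Mis were at -0.04 and -0.64, below the other high-score tumors.

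**Figure D3:**
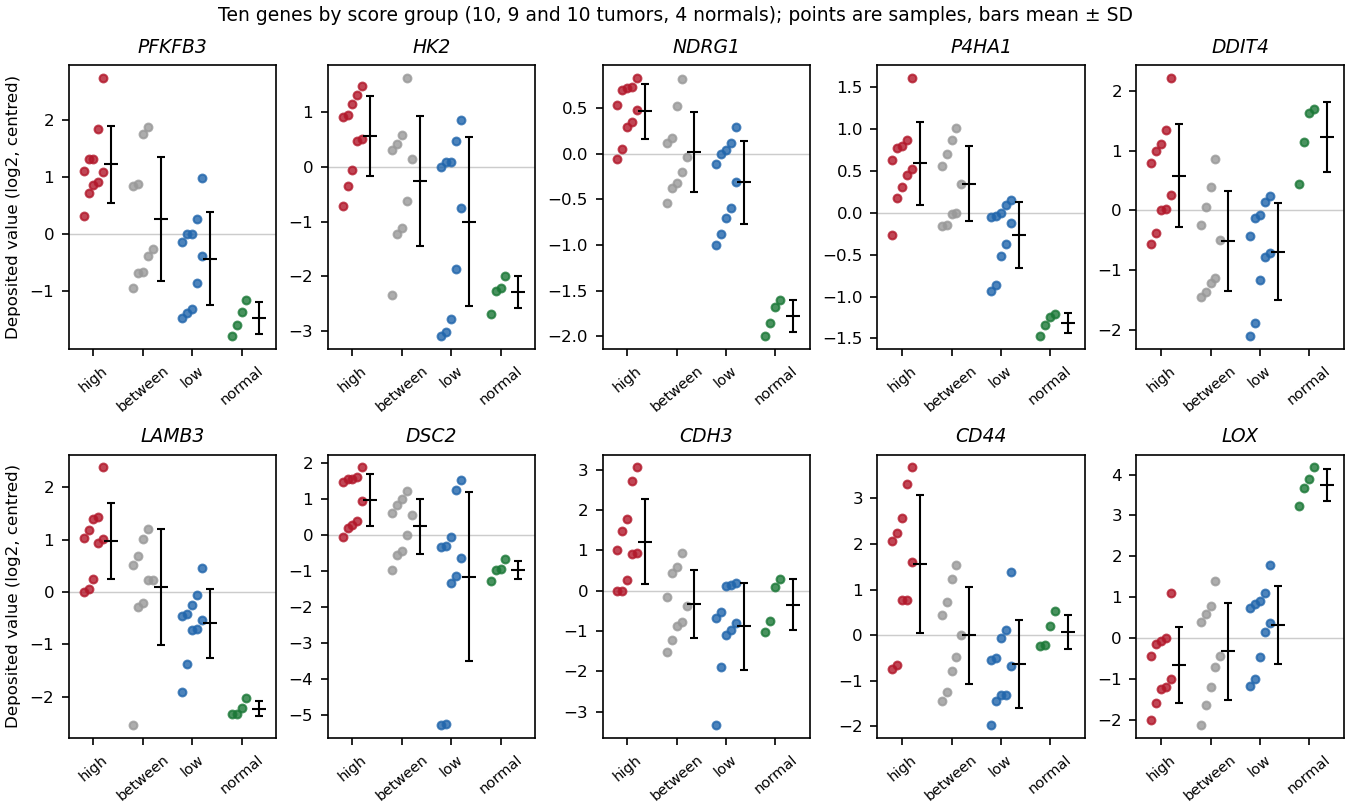
Deposited values (log2, relative to the gene's median over all samples) of 10 genes in the 10 high-score tumors (red), 9 tumors between (grey), 10 low-score tumors (blue) and 4 normals (green). Points are samples and black bars are mean ± SD; the high and low groups overlap in every panel, and LOX is the one gene shown with the larger mean in the low-score group.

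Luminal urothelial genes had 0 of 20 tested at an unadjusted p under 0.05 in either direction, and a median difference of -0.09. The differences ran from -0.94 to 0.69, with 11 of the 20 below 0 and 9 above. Without tumors 9 and Po the median was -0.23, with 13 of the 20 below 0 and 7 above. In that fit 1 of the 20 was at an unadjusted p under 0.05, on the negative side (background 3.27%). UPK1A, a uroplakin of the umbrella cells, had a difference of -0.81 (95% interval -1.83 to 0.21), which was -0.38 without Da6, the tumor at -4.65. SNX31, a sorting nexin of the same cells, had a difference of -0.94 (-1.88 to 0.00, adjusted p = 0.786).

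The study had selected tumors that were largely epithelial by histology, and cell content was not measured here. Lists of stromal and immune genes were read beside the others. Of 13 fibroblast and collagen genes 11 had a difference below 0, with a median of -0.51, and 1 had an unadjusted p under 0.05 in that direction (background 3.19%). That gene, DCN, lay at -2.96, -0.94 and 0.73 in the high group and at -2.06, 0.29 and 2.64 in the low group (difference -1.54, 95% interval -2.80 to -0.27, adjusted p = 0.769). Without tumors 9 and Po the list had 8 of 13 below 0, a median of -0.13 and 0 genes at an unadjusted p under 0.05. The mean over the fibroblast list ran from -1.61 to 1.12 in the high-score and from -1.99 to 2.01 in the low-score tumors, and no fibroblast marker in the table was at its lowest value in all tumors. All 6 smooth muscle genes had a difference below 0, none at an unadjusted p under 0.05. With the means of the fibroblast and macrophage lists as covariates, the counts at an unadjusted p under 0.05 were 4 for glycolysis, 10 for the other hypoxia targets and 6 for the squamous and basal list, while the share over all genes in that fit was 3.95% against 3.06% without the covariates.

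T and NK cell genes had a difference below 0 in 16 of 18, with a median of -0.62, and 1 of the 18 had an unadjusted p under 0.05 in that direction (background 3.19%). Without tumors 9 and Po these became 15 of 18, -0.40 and 0. The gene was EOMES, a transcription factor of cytotoxic lymphocytes, which lay at -4.03, -1.01 and 0.99 in the high group and at -2.97, 0.59 and 2.31 in the low group (difference -1.41, 95% interval -2.75 to -0.08, adjusted p = 0.781). The list mean overlapped almost fully, from -2.02 to 2.57 against -1.89 to 1.48, because Da6 (2.57) and JE (1.30) stood well above the other high-score tumors, whose highest was -0.71. Macrophage markers had 1 of 15 at an unadjusted p under 0.05 with the larger mean in the high group (background 3.06%; 2 of 15 without tumors 9 and Po) and a median of -0.02. The 1 was TREM1, a receptor that amplifies myeloid inflammation, with a difference of 1.10 (0.15 to 2.04). Of the 15 macrophage markers 9 had a difference below 0 (6 without tumors 9 and Po). Neutrophil genes had 1 of 9 (background 3.06%) and a median of 0.22, with 3 of the 9 below 0 (2 without tumors 9 and Po). The 1 was the decoy receptor IL1R2, with a difference of 1.78 (0.38 to 3.17, adjusted p = 0.740). Its values were 3.83 in Da6 and 3.82 in tumor 2. B and plasma cells had 0 of 12, red blood cells 0 of 4, and the part of these cell types in the differences above was not tested.

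**Figure D4:**
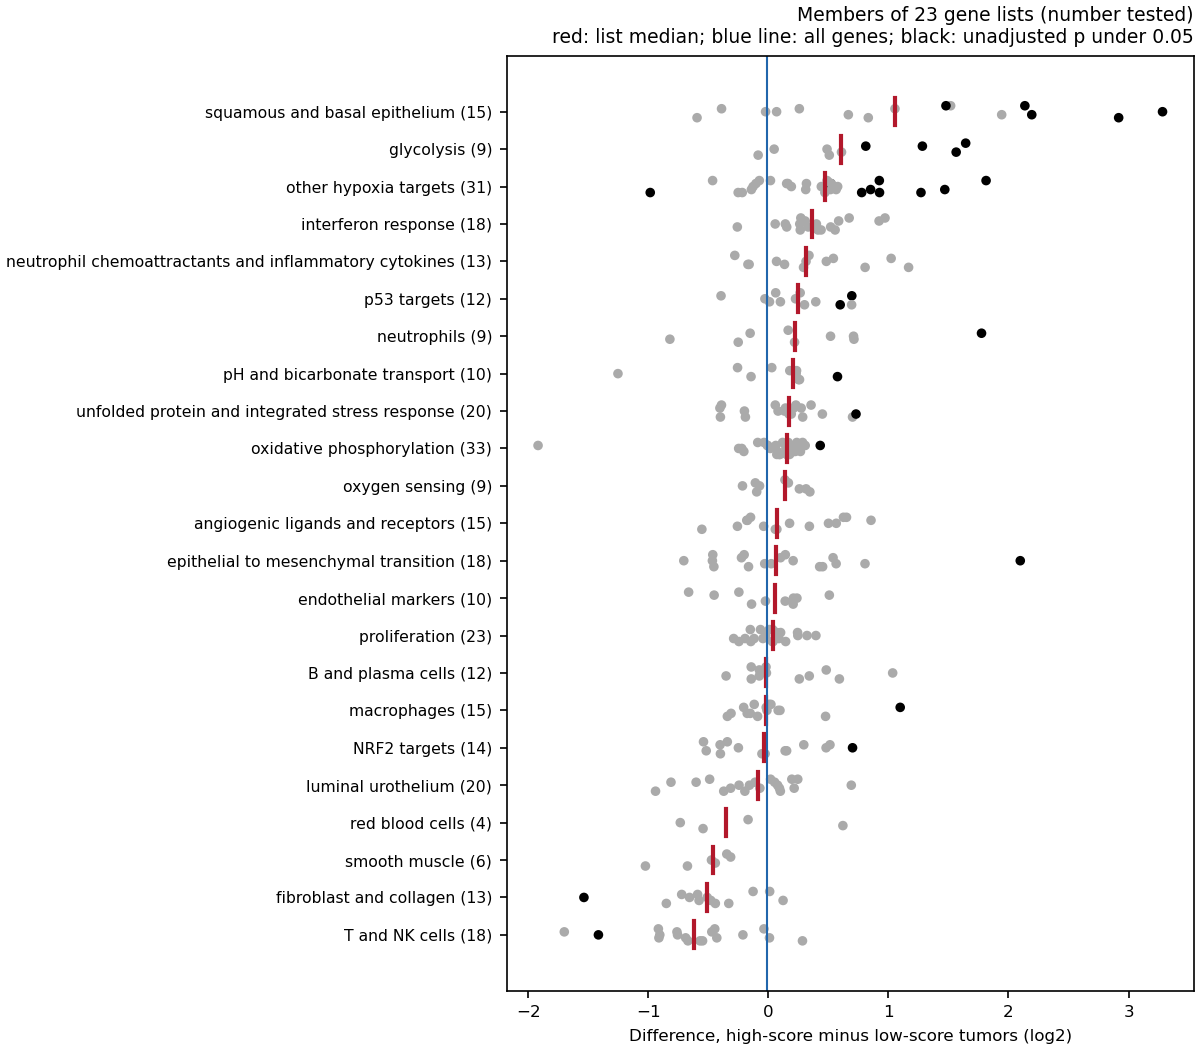
Differences between the high-score and low-score tumors (log2, horizontal axis) for the tested members of 23 gene lists, ordered by the list median (red bars), with the number tested in brackets. The blue line is the median of all 19233 genes, -0.01, and black points have an unadjusted p under 0.05; the squamous and basal list (median 1.05), glycolysis (0.61) and other hypoxia targets (0.47) stand at the top and T and NK cells (-0.62) at the bottom.

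Interferon response genes and inflammatory cytokines were also mostly above 0, without a member at an unadjusted p under 0.05. Of 18 interferon genes 17 were above 0, with a median difference of 0.37 (14 of 18 and 0.29 without tumors 9 and Po). Of 13 cytokine genes 10 were, with a median of 0.31 (0.50 without tumors 9 and Po). Over all genes 48.3% were above 0. The interferon list mean overlapped almost fully, from -1.17 to 1.51 in the high group and from -1.34 to 1.70 in the low group. Its median was 0.73 in the tumors between the groups, against 0.11 in the high and -0.83 in the low group. For the cytokine list these medians were 0.73, 0.57 and -0.32. Members of a list are measured in the same 20 tumors and are not independent of each other. NRF2 targets had 1 of 14 at an unadjusted p under 0.05 with the larger mean in the high group (background 3.06%; 2 of 14 without tumors 9 and Po) and a median of -0.04. In all 23 lists together 0 genes passed the adjusted threshold.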

How the data were processed

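RNA of 29 tumors and 4 normal mucosa samples was sequenced as rRNA-depleted, paired-end libraries. Per the labels, the authors aligned the reads to CanFam3.1 with COBWeb in Strand NGS (version 3.1), normalized the genes once by TMM and once by DESeq, and deposited 2 tables of log2 values, which prove to be centred on each gene's median over the 33 samples. The tables analysed here hold 25096 and 25139 genes, 12202 and 12212 with a symbol. Listed genes were looked up by symbol, so one that stands there without its symbol counts as not in the table. Both tables as read here ended within a line, and genes beyond that point, if any, were not analysed. Without counts there was no basis for a count model, and the values were used without a pseudocount. Positions of genes are not given, because the gene table at hand is of another build than the files.

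Many genes have a lowest value that several samples share; genes that exceeded it in fewer than 10 of the 29 tumors were left out. High-score and low-score tumors were compared in R 4.3.3 by limma 3.58.1 (moderated linear models, no trend), with Benjamini-Hochberg adjustment over all genes tested and a threshold of 0.05, and the script was tested on simulated data. Adjusted p-values and 95% intervals come from that fit. Library measures were compared by two-sided permutation tests (100000 resamples; numpy 2.4.6, scipy 1.17.1).

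The grouping, the 23 gene lists and the tests were chosen with earlier results of these data known. By rule, called genes of the lists and the largest called changes were to be named; as none was called, members of the hypoxia lists and those with the lowest p of other lists are named, with LAMB3, all chosen after their values were seen. Alternatives tried were the other table of the authors (DESeq), limma's trend and array weights, other filters, a 2-fold threshold, groups of 7 and of 14, the score as a slope, each scoring gene left out or all scaled, covariates, and each tumor left out; leaving out tumors 9 and Po, and correlating the scoring genes, were added after seeing the data. Results for some list members are not reported here. The labels do not state whether strand was used in counting; without it reads of overlapping genes cannot be told apart.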

Additional observations from a re-analysis of the deposited data

Results flagged for a closer look

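Of 95 groups of values examined for 1 sample far from the rest, 6 were marked, and chance alone marks about 1 in 20; the measure is the gap between that sample and its nearest neighbour, divided by the range of its group. UPK1A in the high-score tumors had a gap of 0.667, with Da6 at -4.65 and the others between -1.22 and 0.50. SLC4A2 in the high-score tumors had 0.63, with tumor 12 at 1.58 and the others at most 0.52. DSG3 in the low-score tumors had 0.563, with Po at 4.69 and the others at most 0.27. P4HA2 in the high-score tumors had 0.523, with tumor 11 at -0.84 and the others at least 0.17. HK1 in the low-score tumors had 0.509, with tumor 8 at -1.13 and the others at least -0.25. SLC16A3 in the high-score tumors had 0.501, with tumor 2 at -1.14 and the others at least 0.00.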

How the results depend on the processing

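The count of genes past the adjusted threshold was 0 higher and 0 lower in most alternatives, the 2-fold threshold and the DESeq table included. It was 1 higher with 7 against 7 tumors, 1 lower with 14 against 14, and 1 higher and 1 lower with the score as a slope (adjusted p = 0.049995 for both). With each tumor left out in turn it stayed at 0 higher and was 0 to 1 lower, the 1 arising without Da6. No gene was called in more than 1 of the 40 fits. At an unadjusted p under 0.05 the counts of 589 and 614 became 346 and 322 when ADM was left out of the score, and 614 became 398 without EGLN3 in the score; leaving out each tumor gave 468 to 733 and 502 to 729. The glycolysis count of 4 became 7 without VEGFA in the score (background 3.49% in that fit) and was 3 without ADM (background 1.8%). With each tumor left out it was 4 to 6. The 9 other hypoxia targets were then 8 to 10, and the 5 squamous and basal genes 5 to 7. With the slope the 5 became 8 (background 3.53%). Of 39 named genes, 37 kept their direction in all 39 alternatives, but 25 had a difference smaller by over 1.5 times in at least 1 of those other than the slope, 8 of them with a single tumor left out. Lowest sizes were 0.41 for NDRG1, -0.38 for LOX, 0.24 for ANGPT2, 0.38 for FLT1, 0.14 for ANGPTL4 and -0.12 for UPK1A. PFKFB4 (-0.08) was 0.013 without VEGFA in the score and between -0.20 and 0.043 with a tumor left out. SLC16A1 (0.05) was -0.17 with 7 against 7, -0.021 with the slope, -0.089 without VEGFA in the score and -0.23 to 0.34 with a tumor left out. The causes were not tested. The 95% interval of a typical gene reached 0.66 to either side before adjustment, the total depth is unknown, and the score itself may change group membership: leaving out 1 scoring gene kept 8 or 9 of the 10 tumors in each group. No paired analysis was possible because the groups share only 1 label number, 7, which stands for a different dog in each.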

Other observations

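The gene with the smallest p, ENSCAFG00000014252, carries no symbol and had a difference of -1.25 (unadjusted p = 2.8e-05, adjusted p = 0.333). CAMK1G, a calcium-dependent kinase, had the fourth smallest p, with a difference of 1.39 (adjusted p = 0.387); in the RefSeq table it is the direct neighbour of LAMB3, with 0 protein-coding genes between them. CAPN11, a calpain, and STOML3, a stomatin-like membrane protein, were the symbol-bearing genes with the smallest p on the negative side, with differences of -1.96 and -1.28 (adjusted p = 0.387 for both). These genes belong to none of the lists and were noticed after their values were seen.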
